A study of Homo sapiens with 5 samples.

Results

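This is a direct comparison of intron retention after WBP11 siRNA with intron retention after SNW1 siRNA. An intron was taken when it was listed in both deposited tables, WBP11 RNAi against control and SNW1 RNAi against control, at the same position and strand, and when its depth plus spliced reads came to at least 10 in both RNAi libraries. This left 12761 introns of 5014 genes, out of 13412 introns in both tables and 34560 introns listed in the whole series. The value is the retention ratio after WBP11 RNAi minus the retention ratio after SNW1 RNAi, in percentage points, so the control library does not enter it.

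All libraries were polyA RNA from DLD-1, an established human line of colorectal adenocarcinoma, at fewer than 10 passages. The WBP11 RNAi cells were DLD-1 LacZeo treated with 100 nM WBP11 siRNA for 72 h, and the SNW1 RNAi cells were DLD-1 LacZeo treated with 100 nM SNW1 siRNA for 72 h. The control was DLD-1 LacZeo; its treatment label is None, while the table headers call it control RNAi, so it cannot be told whether it received a non-targeting siRNA. A separate pair, labelled DLD-1 LacZeo osTIR1 on both sides and held in 500 µM auxin for 48 h, is a WBP11 auxin library against an auxin control. Per the series' design, the WBP11 auxin cells have lost the endogenous WBP11 gene and rely on a WBP11 transgene with an AID tag, which auxin directs to degradation, so the auxin pair differs in cell line as well as in WBP11, and the degron line without auxin is not analysed here. Each group is 1 library. No spread between cultures can be estimated, no p-value was computed, and every interval below is a 95% interval for counting error only.

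WBP11 is a splicing factor that associates with the spliceosome and binds protein phosphatase 1. SNW1, also called SKIP, is a core component of the activated spliceosome and is carried through both catalytic steps. Intron retention is measured as the coverage of an intron relative to that coverage plus the reads that splice across it. A ratio near 0 means that nearly all reads at the intron's ends are spliced. Short introns with GC-rich surroundings are the class most often retained in human polyA RNA. Most human introns are removed by the major spliceosome, and a small class with a distinct 5' splice site is removed by the minor, U12-dependent spliceosome.

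Some short introns at the ends of the direct comparison are shown whole. They are given here because retention differed by 30 points or more in opposite directions between introns of like size. Others could not be shown because no transcript held their sequence, PRKDC intron 82 and NR1H2 intron 3 among them. Letters come from GENCODE release 29 transcripts that cover the intron (GRCh38). Capitals mark the last 3 exon bases before the intron and the first 2 after it, and the coordinates include these exon bases. The first 5 introns were more retained after WBP11 RNAi, and the last 2 were less retained after WBP11 RNAi.
ZFYVE19 intron 10, chr15:40814068-40814149, plus strand: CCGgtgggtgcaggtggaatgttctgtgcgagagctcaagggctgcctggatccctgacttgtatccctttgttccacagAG
ATP13A1 intron 5, chr19:19656915-19656996, minus strand: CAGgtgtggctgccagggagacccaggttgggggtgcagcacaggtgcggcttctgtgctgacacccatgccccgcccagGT
AP1G2 intron 13, chr14:23563501-23563586, minus strand: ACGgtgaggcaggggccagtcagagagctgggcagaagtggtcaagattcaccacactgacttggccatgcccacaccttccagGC
PAXX intron 3, chr9:136992972-136993054, plus strand: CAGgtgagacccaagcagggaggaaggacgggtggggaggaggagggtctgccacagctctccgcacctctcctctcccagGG
SREBF1 intron 8, chr17:17817135-17817258, minus strand: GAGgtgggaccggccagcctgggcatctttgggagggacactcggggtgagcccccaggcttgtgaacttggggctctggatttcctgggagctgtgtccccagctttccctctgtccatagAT
KRI1 intron 1, chr19:10565789-10565908, minus strand: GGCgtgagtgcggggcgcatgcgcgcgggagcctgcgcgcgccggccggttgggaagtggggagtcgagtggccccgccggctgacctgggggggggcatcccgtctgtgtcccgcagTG
ANKZF1 intron 6, chr2:219233189-219233287, plus strand: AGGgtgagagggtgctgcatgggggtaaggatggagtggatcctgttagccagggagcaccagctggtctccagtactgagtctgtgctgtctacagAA

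All 7 begin with GT and end with AG. The exon before the intron ends in G in all of them except KRI1. USP21 intron 11, of 222 bp, is also among the largest lower differences and has a sequence, but is not shown whole. It begins with AT, ends with AG and follows an exon that ends in C, so the 7 do not stand for the whole set.

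The targeted genes were checked first. WBP11 spliced reads over its 2 matched introns came to 20 after WBP11 RNAi and 460 after SNW1 RNAi, which is 3.46% (2.09% to 5.41%) relative to each library's total. In bulk RNA, a loss in every cell and a complete loss in some cells cannot be told apart. The WBP11 intron that could be compared, intron 7 of 11, was at 8.97% after WBP11 RNAi and 1.68% after SNW1 RNAi, with 13.2 observations after WBP11 RNAi. SNW1 had no intron in both tables. Against the control, in each comparison's own table, WBP11 spliced reads stood at 6.75% (4.07% to 10.6%) after WBP11 RNAi, and SNW1 spliced reads at 10.2% (6.87% to 14.8%) after SNW1 RNAi. The untargeted partner was not low: WBP11 stood at 196% after SNW1 RNAi and SNW1 at 141% after WBP11 RNAi. Spliced reads over the matched introns totalled 2492446 after WBP11 RNAi, 1983492 after SNW1 RNAi and 2634988 in the control, and the median intron had 106, 98.1 and 116 observations (depth plus spliced reads) in these libraries. Uneven coverage was noted by the authors' pipeline at 4307 of the introns after WBP11 RNAi, 4683 after SNW1 RNAi and 1938 in the control. Among the 5655 introns with no warning of any kind in either RNAi library, 2.16% were at least 10 points higher after WBP11 RNAi and 18.1% at least 10 points lower, against 2.09% and 16.5% of all introns compared. Of 14 colon epithelium markers, 5 had an intron in each table, CDH1, CLDN7, KRT18 and KRT19 in both, and none of 7 fibroblast and 6 leukocyte markers was listed in either; a gene is listed only when an intron passes the tables' own criteria, so this says little about unlisted genes.

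Most introns were less retained after WBP11 RNAi than after SNW1 RNAi. Median retention was 2.86% after WBP11 RNAi, 6.41% after SNW1 RNAi and 2.29% in the control. The median difference was -2.69 points (quartiles -6.95 and -0.550), with 10410 introns (81.6%) below 0 and 2308 (18.1%) above it. Higher and lower hereafter mean a difference of at least 10 points. Retention was higher after WBP11 RNAi at 267 introns of 219 genes, which is 2.09% of those compared, and lower at 2104 introns of 1288 genes, which is 16.5%. The interval of the difference left out 0 at 151 of the higher and 1598 of the lower introns. Differences of 30 points or more numbered 27 higher and 215 lower. Across introns the paired values had a Pearson correlation of 0.842 and a Spearman correlation of 0.713, as a description; introns of a gene share their transcripts and are not independent.

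**Figure D1:**
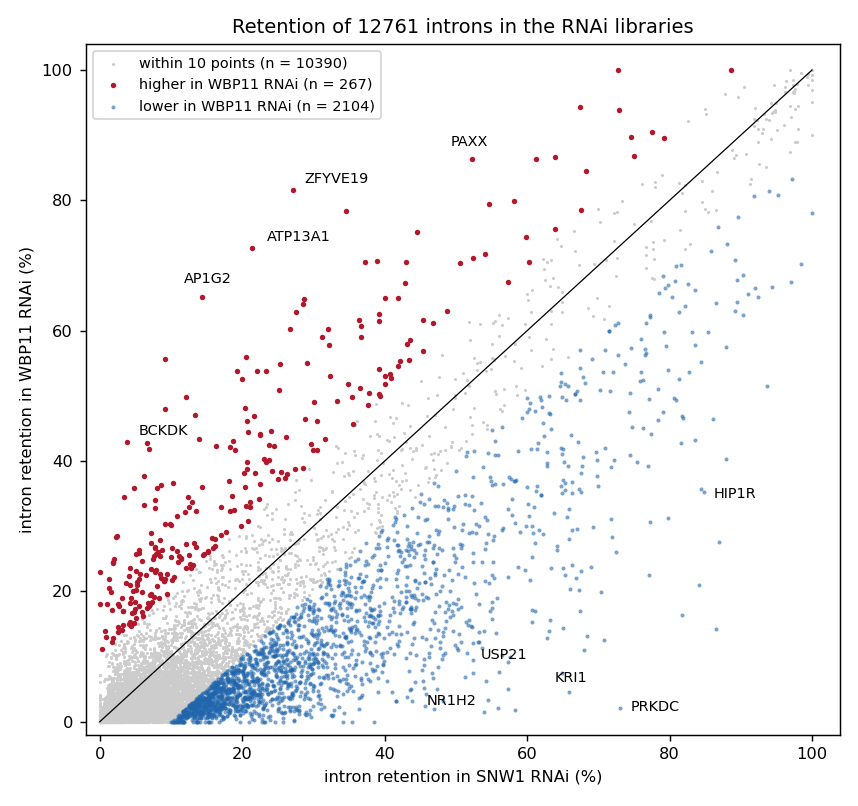
Retention of each of 12761 introns after WBP11 RNAi (vertical axis, %) against SNW1 RNAi (horizontal axis, %), 1 library each, with the line of equality. The 267 higher introns (red) and 2104 lower introns (blue) lie on opposite sides of the line, and the lower ones reach differences as large as that of PRKDC.

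The next introns have at least 30 observations in both RNAi libraries, an interval without 0 and no known exon, 1 per gene and direction. Some larger differences lie outside these limits, such as 46.5 points in CNOT11. Within the limits, the largest higher values sat in introns of 71 to 119 bp. ZFYVE19, which encodes a regulator of cytokinetic abscission, had its last intron (10 of 10) at 81.5% after WBP11 RNAi, 27.2% after SNW1 RNAi and 12% in the control, a difference of 54.4 points (42.5 to 63.9). ATP13A1, an endoplasmic reticulum P5-type ATPase, had intron 5 of 25 at 72.6% after WBP11 RNAi, 21.4% after SNW1 RNAi and 10.7% in the control, a difference of 51.3 points (39.3 to 60.9). AP1G2, a gamma-adaptin of the AP-1 coat family, had intron 13 of 21 at 65.1%, against 14.3% after SNW1 RNAi and 9.18% in the control. In these 3 introns the value after WBP11 RNAi stood far above both other libraries, whose values lay much closer together.

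In BCKDK, the kinase that inhibits the branched-chain ketoacid dehydrogenase, intron 10 of 12 was nearly fully spliced after SNW1 RNAi. It stood at 42.9% after WBP11 RNAi, 3.88% after SNW1 RNAi and 1.11% in the control, a difference of 39.0 points (30.7 to 46.9; chr16:31111220-31111299, plus strand, hg38). PAXX, a factor of DNA end joining, showed the same order from a high base: 86.4% after WBP11 RNAi, 52.2% after SNW1 RNAi and 49.0% in the control. SREBF1, the transcription factor of lipid synthesis, had intron 8 of 18 at 60.2% after WBP11 RNAi, 26.8% after SNW1 RNAi and 12.5% in the control. The remaining introns of this set are in MAP3K6, CDH24, CPSF1, PLCD1, PCNX3 and RNF123, with differences of 33.3 to 37.8 points. The CDH24 intron lies in the 3' UTR, and all others in this set are coding.

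Under the same limits, the largest lower differences reached further. The lowest difference of all introns compared, -72.2 points, lies outside these limits. PRKDC, which encodes the DNA end joining kinase DNA-PKcs, had intron 82 of 85, of 67 bp, at 2.17% after WBP11 RNAi, 73.1% after SNW1 RNAi and 0.120% in the control, a difference of -70.9 points (-75.5 to -65.4). KRI1, whose yeast counterpart acts in ribosome biogenesis, had its first intron at 4.50% after WBP11 RNAi, 65.9% after SNW1 RNAi and 5.92% in the control, a difference of -61.4 points (-71.1 to -48.5). NR1H2, the oxysterol receptor LXR beta, had intron 3 of 9 at 1.51% after WBP11 RNAi, 54.0% after SNW1 RNAi and 2.62% in the control. In PRKDC, KRI1 and NR1H2 the WBP11 RNAi library was within a few points of the control and only the SNW1 RNAi library stood high.

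ANKZF1, which acts in ribosome-associated quality control, had intron 6 of 13 at 4.96% after WBP11 RNAi, 57.4% after SNW1 RNAi and 13.4% in the control. EDC4, a scaffold of the mRNA decapping complex, had intron 15 of 28 at 3.31%, against 54.6% after SNW1 RNAi and 8.07% in the control. TNPO2, a nuclear import receptor, had intron 16 of 25 at 13.9%, against 63.1% after SNW1 RNAi and 4.64% in the control. Longer introns appear here as well: HIP1R intron 18 of 31, of 886 bp, stood at 35.2% after WBP11 RNAi, 84.9% after SNW1 RNAi and 20.5% in the control. DGKQ, PLXNA1, PLXNA3, CPSF1 and USP21 complete the set, with differences of -50.4 to -48.2 points.

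**Figure D2:**
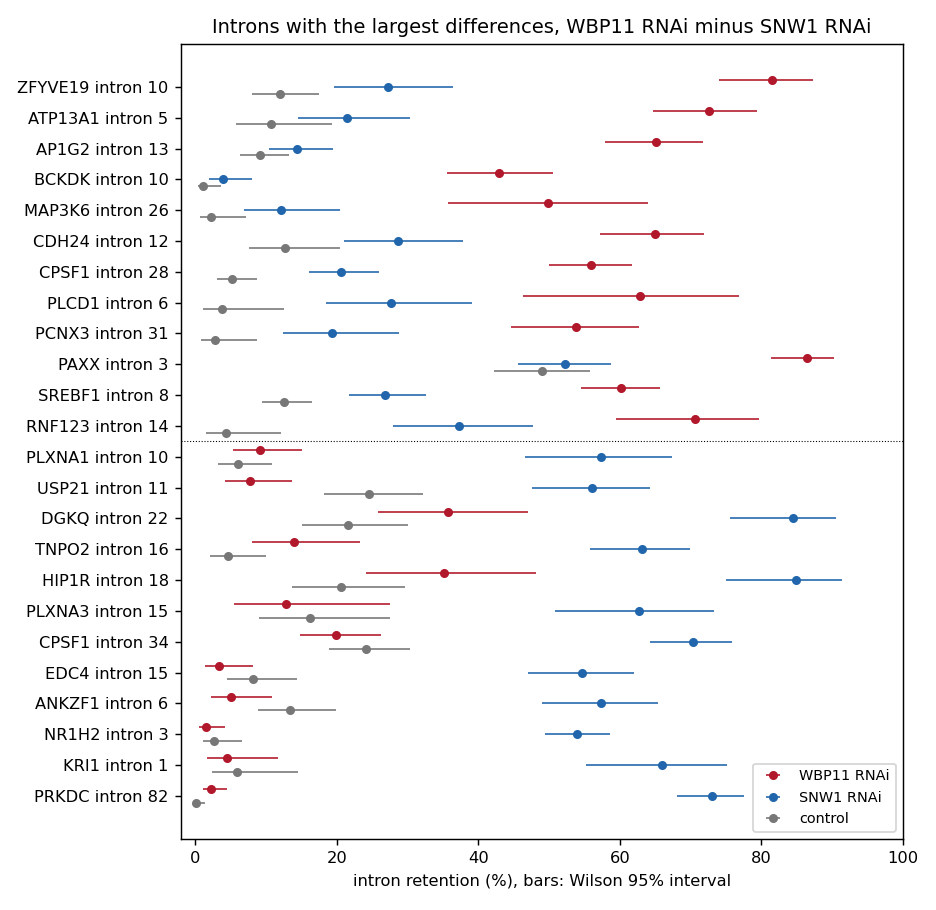
Retention (%) of the 24 introns with the largest higher (above the dotted line) and lower differences, in WBP11 RNAi (red), SNW1 RNAi (blue) and control (grey), 1 library each; bars are Wilson 95% intervals. Above the line the WBP11 RNAi point lies to the right of the others, and below it the SNW1 RNAi point does.

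Seen from the control, the higher and lower introns were of different make. The 267 higher introns had median retention of 34.1% after WBP11 RNAi, 14.5% after SNW1 RNAi and 6.67% in the control. Of the 265 with enough control reads, 248 were at least 10 points above the control after WBP11 RNAi and 103 after SNW1 RNAi. By as much below the control were 1 after WBP11 RNAi and 9 after SNW1 RNAi. Of all 12751 matched introns with enough control reads, 1242 were above the control by as much after WBP11 RNAi and 2940 after SNW1 RNAi. Of the same 12751, 191 were below it after WBP11 RNAi and 63 after SNW1 RNAi. The full comparisons with the control also hold introns that were not matched. There, 9.07% were above and 1.69% below after WBP11 RNAi, and 16.6% above and 0.359% below after SNW1 RNAi. The 2104 lower introns had medians of 7.77% after WBP11 RNAi, 26.3% after SNW1 RNAi and 6.88% in the control. Of the 2103 with enough control reads, 303 were 10 points or more above the control after WBP11 RNAi and 114 were 10 points or more below it, while 1791 were above it after SNW1 RNAi and 11 below. These comparisons share 1 control library, and the choice of members by the direct difference fixes part of these counts.

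Intron length separated the higher introns most. Of introns up to 80 bp, 9.08% were higher after WBP11 RNAi and 31.4% lower, with a median difference of -4.85 points (n = 738). At 81 to 100 bp the shares were 3.97% and 18.7% (n = 1462). At 301 to 1000 bp they were 1.0% and 17.5% (n = 3300), and above 3000 bp 0.568% and 4.26% (n = 1056). The higher share thus fell at each step of length, while the lower share stayed between 17.5% and 21.1% from 81 to 1000 bp and was smaller only beyond it. Of the 267 higher introns, 125 (46.8%) were at most 100 bp long, against 24.0% of the lower introns and 15.1% of those within 10 points.

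GC content of the flanking exons, taken over the 100 bases on each side, went with the lower share. In 5 classes of about equal size by flanking GC, lowest to highest, 5.21%, 11.6%, 18.1%, 21.4% and 26.8% were lower after WBP11 RNAi, and the median difference was -1.25, -2.38, -3.15, -3.69 and -4.58 points. The higher share was 1.85%, 1.26%, 1.85%, 2.44% and 3.10% in the same order. Among introns up to 100 bp, 10.4% were lower in the lowest of 4 classes of flanking GC and 29.9% in the highest, and above 300 bp the shares were 4.81% and 24.0%. The shares also differed by retention in the control, though not evenly. In introns at 0 to 1%, 1 to 3%, 3 to 10%, 10 to 30% and 30 to 100% in the control, the lower share was 3.79%, 7.48%, 24.6%, 47.6% and 44.9%. The higher share was 1.62%, 0.835%, 2.38%, 5.95% and 7.02% in the same classes.

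**Figure D3:**
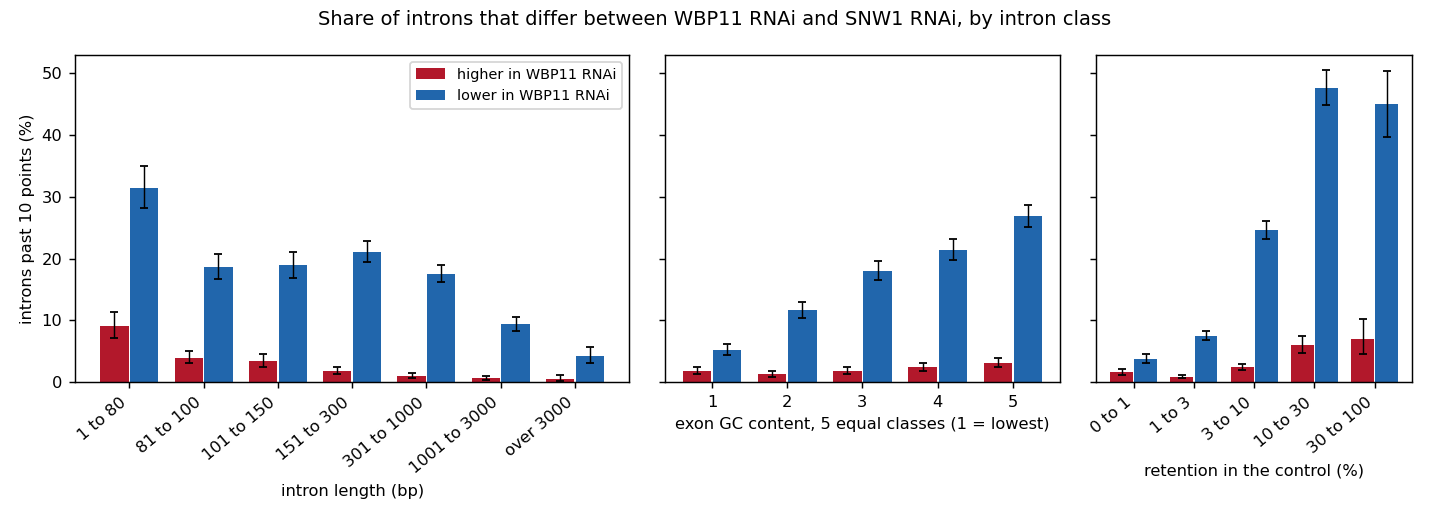
Share of introns (%) that were higher (red) or lower (blue) by at least 10 points after WBP11 RNAi than after SNW1 RNAi, by intron length, by flanking exon GC content in 5 classes and by retention in the control; bars are exact 95% binomial intervals. The higher share falls with length, from 9.08% to 0.568%, and the lower share rises with GC content, from 5.21% to 26.8%.

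The last base of the exon before the intron, which pairs with U1 snRNA when it is G, also divided the introns. Where it was G (9799 introns), the median difference was -3.10 points and 18.3% were lower after WBP11 RNAi. Where it was not G (2962 introns), the median difference was -1.34 points and 10.3% were lower. Introns after a last T were the least different, at -0.838 points with 6.34% lower and 3.13% higher (n = 1119). The split came from both sides: introns after a base other than G had median retention of 3.62% after WBP11 RNAi and 5.33% after SNW1 RNAi, and introns after G had 2.69% after WBP11 RNAi and 6.80% after SNW1 RNAi. After WBP11 RNAi, 26.3% of introns after a base other than G lay below the control, against 45.2% of introns after G. Within each of the 4 GC classes the lower share was smaller where the last base was not G, 3.29% against 7.21% in the lowest class and 17.7% against 28.2% in the highest.

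Position in the transcript had smaller differences. The lower share was 19% for first introns (n = 573), 16.4% for internal introns (n = 10620) and 15.9% for last introns (n = 1525). For the only intron of a transcript, 12 of 43 were lower, which is 27.9% with an exact interval of 15.3% to 43.7%. Introns that overlap a known exon, where exon reads can count as retention, were higher in 4.72% and lower in 29.96% of cases (n = 721), against 1.94% and 15.7% of the others.

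A class of introns with the U12-type 5' splice site was searched for after the values were known. The letters ATATCCT or GTATCCT were required as the first 7 intron bases, on the transcribed strand only, in the 2706 introns (21.2% of those compared) whose sequence a GENCODE transcript holds; such introns were lower in 28.7% of cases, against 13.2% of introns without a sequence. The letters stood in 15 introns, which is 0.554%. The first 20 bases of 6 of them are shown with these 7 letters in capitals (GRCh38), because these introns moved apart in the RNAi libraries while sharing this start.
USP21 intron 11, chr1:161164613-161164632, plus strand: ATATCCTaatcttcagattc
EDC4 intron 22, chr16:67881846-67881865, plus strand: GTATCCTtgagactggtagc
TAF1C intron 7, chr16:84182182-84182201, minus strand: GTATCCTttcttgcgagaca
SLC8B1 intron 6, chr12:113320830-113320849, minus strand: GTATCCTtttgtccagtgtc
ALG3 intron 7, chr3:184243534-184243553, minus strand: ATATCCTttaaattgtggga
ATG3 intron 11, chr3:112534249-112534268, minus strand: GTATCCTtccctgtatgtaa

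All 15 of these introns were less retained after WBP11 RNAi than after SNW1 RNAi, and 4 of them by at least 10 points, which is 26.7% against 28.7% of the other introns with a sequence. Their position relative to the control set them apart more. After WBP11 RNAi, 15 of 15 were below the control, compared with 946 of the other 2691 (35.2%). After SNW1 RNAi, 12 of 15 were above the control, compared with 90.5% of the others. Median retention of the 15 was 1.20% after WBP11 RNAi, 7.24% after SNW1 RNAi and 3.20% in the control.

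USP21, a deubiquitinase, had intron 11 of 13 at 7.69% after WBP11 RNAi, 56.1% after SNW1 RNAi and 24.5% in the control. EDC4 intron 22 of 28 stood at 25.6% after WBP11 RNAi, 45.5% after SNW1 RNAi and 45.8% in the control, so there the SNW1 RNAi library was at the control's level. TAF1C, a subunit of the RNA polymerase I selectivity factor SL1, had intron 7 of 13 at 11.7% after WBP11 RNAi, 30.1% after SNW1 RNAi and 23.0% in the control. The autophagy enzyme ATG3 had its last intron at 0.332% after WBP11 RNAi, 7.12% after SNW1 RNAi and 3.20% in the control. PSMA1, a proteasome subunit with deep coverage, had 1.20% after WBP11 RNAi, 2.98% after SNW1 RNAi and 2.80% in the control, a difference of -1.79 points (-2.99 to -0.779). In the auxin pair, 10 of the 11 measured were below their control, with a median of -3.77 points, and MAPK12 was above it by 2.78 points. Over all 8606 introns of the direct comparison that were measured in the auxin pair, the median was 2.23 points. The share of these that lay below the auxin control is not given here, so the count of 10 has no share to stand against.

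The auxin pair shares no library with the direct comparison and was read for the same introns. Of the 267 introns that were higher after WBP11 RNAi than after SNW1 RNAi, 220 were measured in it; their median difference, WBP11 auxin minus auxin control, was 27.1 points, and 164 (74.5%) rose by at least 10 points while 3 fell. Of the lower introns, 1570 were measured; their median difference was 3.94 points, 530 (33.8%) rose and 88 (5.61%) fell. Of the introns within 10 points, 6816 were measured; their median difference was 1.95 points and 17.2% rose. Over the whole auxin comparison 13.8% of introns rose and 1.37% fell, and over the introns shared with the direct comparison 21.7% rose.

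Short introns rose more often in the auxin pair whatever their group. Among introns up to 100 bp, 102 of 108 higher introns (94.4%), 261 of 437 lower introns (59.7%) and 45.2% of those within 10 points rose in the auxin pair. Among introns over 300 bp the shares were 27 of 43 (62.8%), 137 of 589 (23.3%) and 8.95%. The order of the groups was therefore the same within both length classes. Retention in the auxin control also differed between groups. Up to 100 bp its median was 10.7% for higher introns, 11.4% for lower ones and 3.40% for those within 10 points. Over 300 bp these medians were 8.62%, 9.75% and 2.52%. Whether the order depends on this starting level was not tested. BCKDK intron 10 stood at 71.5% in the WBP11 auxin library and 4.42% in the auxin control, and CPSF1 intron 28 at 87.6% in the WBP11 auxin library and 17.6% in the auxin control. ATP13A1 intron 5 stood at 87.1% in the WBP11 auxin library and 12.3% in the auxin control.

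The lower introns did not behave as 1 group there. KRI1 intron 1 stood at 2.80% in the WBP11 auxin library and 0.596% in the auxin control, and ANKZF1 intron 6 at 10.4% in the WBP11 auxin library and 11.1% in the auxin control, so neither differed by 10 points. PRKDC intron 82 rose to 55.9% in the WBP11 auxin library, against 2.70% in the auxin control, although it was at 2.17% after WBP11 RNAi. NR1H2 intron 3 likewise rose to 46.9% in the WBP11 auxin library, against 8.31% in the auxin control, and PLXNA1 intron 10 to 59.5%, against 9.70% in the auxin control. At PRKDC, NR1H2 and PLXNA1 the WBP11 auxin library thus stood far from the WBP11 RNAi library, where these introns were at 2.17%, 1.51% and 9.10%. The lines, agents and times of the 2 kinds of depletion differ.

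**Figure D4:**
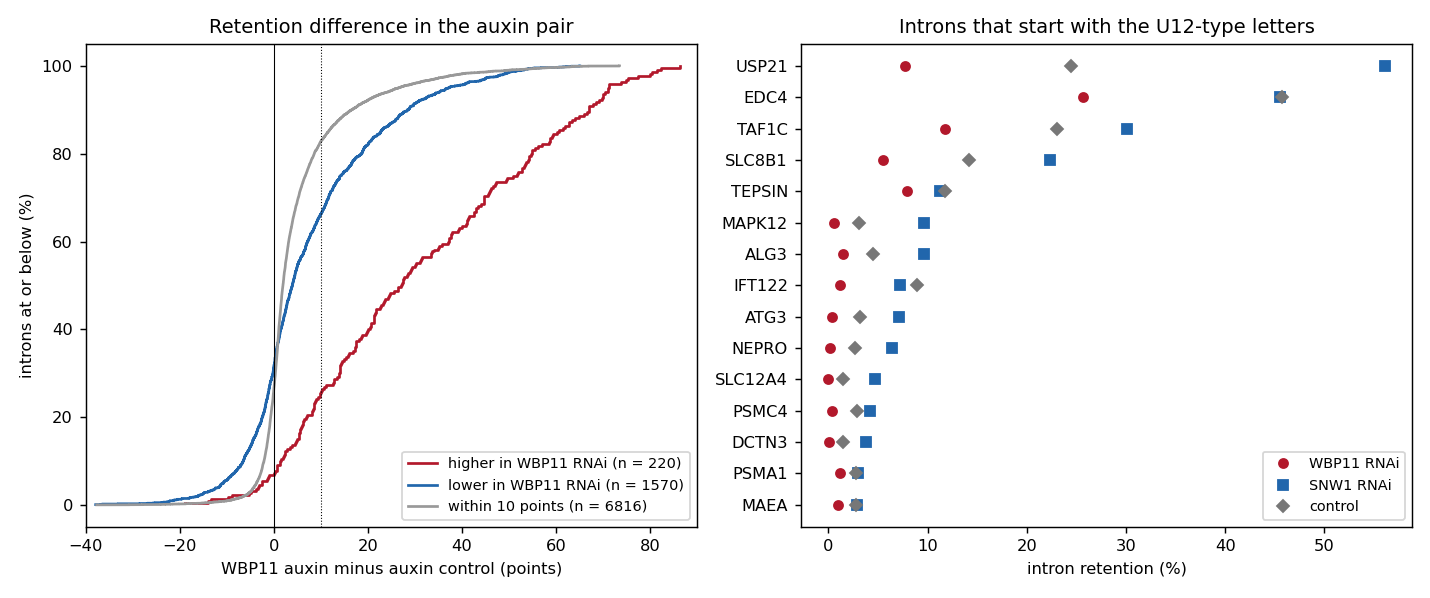
Left, cumulative share of introns (%) by their difference in the auxin pair (WBP11 auxin minus auxin control, points) for introns higher (red, n = 220), lower (blue, n = 1570) or within 10 points (grey, n = 6816) in the direct comparison, with lines at 0 and at 10 points. Right, retention (%) of the 15 introns with the U12-type start in WBP11 RNAi (red), SNW1 RNAi (blue) and control (grey), where the WBP11 RNAi point is the leftmost in every intron.

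Some genes held introns that differed in opposite directions. Of the 2781 genes with at least 2 introns compared, 98 (3.52%) held both a higher and a lower one. These are 44.7% of the 219 genes with a higher intron and 7.61% of the 1288 genes with a lower intron. Over all 5014 genes compared, 1288 held a lower intron and 219 a higher one. Genes with more introns compared have more chances to hold both, which was not adjusted for. In CPSF1, the largest subunit of the cleavage and polyadenylation factor, 20 introns were compared, 2 were higher and 5 lower. Its intron 28, of 82 bp, stood at 55.9% after WBP11 RNAi and 20.5% after SNW1 RNAi, and its intron 34, of 74 bp, at 19.9% after WBP11 RNAi and 70.3% after SNW1 RNAi. Each of these introns had 187 or more observations in both RNAi libraries.

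CDH24, a cadherin, had its last intron at 64.9% after WBP11 RNAi and 28.7% after SNW1 RNAi, while intron 9, of 83 bp, stood at 3.23% after WBP11 RNAi and 48.2% after SNW1 RNAi. AP1G2, with the highest intron 13, also had intron 17, of 326 bp, at 44.1% after WBP11 RNAi and 77.4% after SNW1 RNAi. NBEAL2, needed for platelet alpha granules, had 5 higher and 7 lower introns of 27, and PLXNB1, a semaphorin receptor, had 5 higher and 1 lower of 13. MAPK11, the kinase p38 beta, had intron 10 at 42.8% after WBP11 RNAi and 6.67% after SNW1 RNAi, and intron 7 at 20.9% after WBP11 RNAi and 84.1% after SNW1 RNAi. These have as few as 12.6 observations, so the intervals are wide, 5.71 to 59.1 points for intron 10 and -79.7 to -28.9 points for intron 7.

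Other genes differed in 1 direction throughout. Of the 1659 genes with at least 3 introns compared, every intron was lower in 16 and every intron higher in 1. THOC6, a subunit of the THO complex in mRNA export, was lower at 8 of 8 introns, by 13.3 to 38.4 points in size; intron 2 stood at 9.64% after WBP11 RNAi, 48.0% after SNW1 RNAi and 5.21% in the control. ELL3, an elongation factor of RNA polymerase II, was lower at 6 of 6, and GHDC at 4 of 4. MFSD10 was lower at 8 of 10 introns, HIP1R, an adaptor between clathrin and actin, at 8 of 14, and MAP4K2 at 8 of 16. IKBKE, a kinase of innate immune signalling, was higher at 3 of 3 introns, by 10.6 to 28.2 points, but all 3 intervals include 0. COL7A1, the collagen of anchoring fibrils, was lower at 12 of 27 introns and higher at 1, and its low read numbers leave most of these intervals spanning 0.

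**Figure D5:**
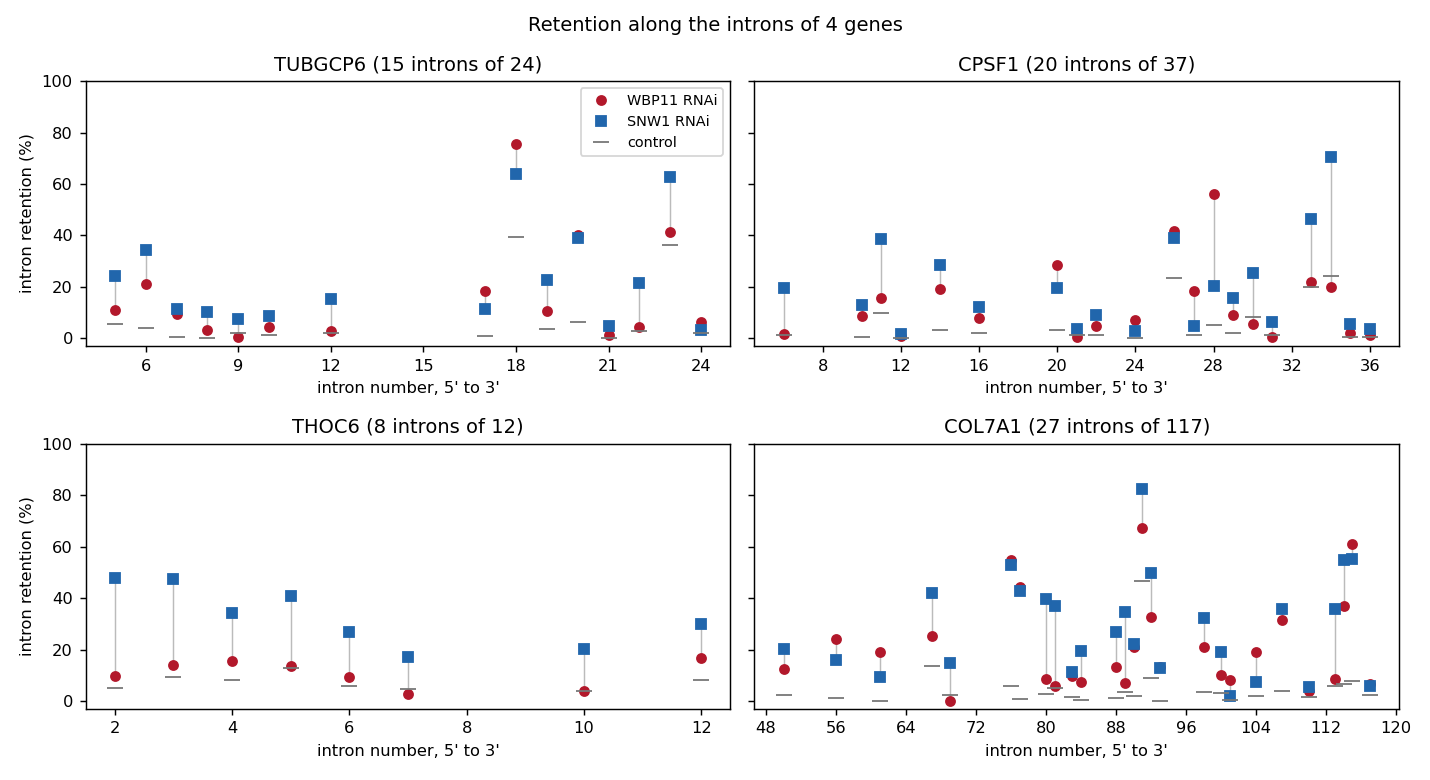
Retention (%) along the introns of TUBGCP6, CPSF1, THOC6 and COL7A1, numbered 5' to 3', in WBP11 RNAi (red circles), SNW1 RNAi (blue squares) and control (grey dashes), 1 library each. In THOC6 the SNW1 RNAi value is above the WBP11 RNAi value at 8 of 8 introns, and in CPSF1 the order changes between introns 28 and 34.

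TUBGCP6 and CDCA5 are genes of the gamma-tubulin ring complex and of sister chromatid cohesion. TUBGCP6 had 15 introns compared. Its intron 18 stood at 75.5% after WBP11 RNAi, 63.9% after SNW1 RNAi and 39.5% in the control, a difference of 11.7 points whose interval includes 0 (-4.14 to 26.9). Intron 20 was at 40.2% after WBP11 RNAi and 38.9% after SNW1 RNAi, against 6.40% in the control, and did not differ between the RNAi libraries beyond counting error (-14.3 to 16.9 points). Intron 23 stood at 41.4% after WBP11 RNAi and 62.8% after SNW1 RNAi, and intron 22 at 4.53% after WBP11 RNAi and 21.7% after SNW1 RNAi. Intron 12 was lower as well, by -12.2 points (-21.3 to -4.13). The intervals of introns 12, 22 and 23 leave out 0. Introns 5, 6 and 19 were also lower, with intervals that include 0, and intron 18 was the only higher one. In CDCA5, which encodes sororin, the first intron stood at 29.9% after WBP11 RNAi, 69.2% after SNW1 RNAi and 3.77% in the control, a difference of -39.3 points (-49.1 to -28.1). Intron 5 of CDCA5, which overlaps a known exon, was also lower, at 7.52% after WBP11 RNAi and 18.7% after SNW1 RNAi, a difference of -11.2 points (-18.8 to -4.48) that was -8.50 after centring on the median. Introns 2 to 4 of CDCA5 differed by less than 10 points.

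Gene lists are given by their counts, against 2.09% higher and 16.5% lower over all introns. In lists of cell division genes the lower share lay between 12.1% and 33.3%. It was 11 of 33 introns (33.3%) of the gamma-tubulin ring complex, 10 of 40 (25%) of sister chromatid cohesion, 8 of 48 (16.7%) of the anaphase-promoting complex and spindle checkpoint, and 12 of 99 (12.1%) of centriole and centrosome genes. Among the 11 lower introns of the gamma-tubulin ring complex are TUBGCP6 introns 5, 6, 12, 19, 22 and 23. That share thus rests largely on this gene, and the intervals of its introns 5, 6 and 19 span both signs. The higher introns in these lists were TUBGCP6 intron 18 and REC8 intron 5. ANAPC2, the cullin-like subunit of the anaphase-promoting complex, had intron 9 at 20.2% after WBP11 RNAi, 67.2% after SNW1 RNAi and 11.5% in the control. CEP131, a centriolar satellite protein, had intron 4 at 10.3% after WBP11 RNAi, 56.5% after SNW1 RNAi and 4.88% in the control. Kinesins had 2 higher and 4 lower of 46, all 6 in KIFC2 and KIF18B.

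Genome maintenance genes held introns in both directions. DNA replication had 3 higher and 6 lower of 79 introns (7.59% lower), and recombination and Fanconi repair 4 higher and 19 lower of 84 (22.6% lower). The helicase gene RECQL4 had intron 15 at 75.1% after WBP11 RNAi, 44.6% after SNW1 RNAi and 25.9% in the control, and intron 4 at 39.9% after WBP11 RNAi, 75.5% after SNW1 RNAi and 27.0% in the control. The clamp loader subunit RFC4 had intron 9 at 44.1% after WBP11 RNAi, 22.5% after SNW1 RNAi and 20.9% in the control. The nuclease gene MUS81 had intron 13 at 67.4% after WBP11 RNAi, 42.8% after SNW1 RNAi and 12.3% in the control. ATM, the kinase of the double-strand break response, had intron 3 at 47.9% after WBP11 RNAi and 9.09% after SNW1 RNAi, with an interval of 9.12 to 63.7 points. The p53 target list had 6 lower and 0 higher of 28.

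In lists of the splicing machinery the lower share was below the 16.5% over all introns. The PRP19 complex and activated spliceosome had 1 lower of 51 introns (1.96%), in DHX38. U1 and U2 snRNP genes had 1 of 20 (5%), in U2AF2. Tri-snRNP genes had 4 of 30 (13.3%) and SR proteins with their kinases 4 of 36 (11.1%), closer to the share over all introns. None of these lists had a higher intron. The median difference of the SR list was further from 0 than that of all introns, at -3.36 against -2.69 points. SRSF6 intron 1 stood at 7.80% after WBP11 RNAi, 38.4% after SNW1 RNAi and 13.3% in the control. The exon junction complex and nonsense-mediated decay list had 4 lower of 31, with SMG9 intron 8 at 6.79% after WBP11 RNAi, 32.1% after SNW1 RNAi and 11.1% in the control. The proteasome had 1 lower of 38, in PSMD13, and RNA polymerase II with Mediator 2 higher and 6 lower of 48.

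Among the remaining lists, basement membrane and epithelial matrix genes had 31 lower of 110 introns (28.2%) and 3 higher. COL7A1 alone gave 27 of the 110 introns, 12 of the 31 lower and 1 of the 3 higher. LAMA5, a laminin alpha chain, had intron 49, of 69 bp, at 3.18% after WBP11 RNAi, 41.6% after SNW1 RNAi and 0.402% in the control. Aminoacyl-tRNA synthetases had 1 higher and 9 lower of 64, and ABC transporters 4 higher and 12 lower of 75. The 4 colon marker introns compared had neither. A list's median can be set against -2.69 points over all introns: it was -4.01 for the gamma-tubulin ring complex, -3.86 for p53 targets, -1.73 for the PRP19 list and -1.09 for kinesins.

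The bounds of the choice cut through gradual values. PIF1 and CTSK had an intron just inside the minimum of 10 observations, and STOML1 and CCDC9B had one just outside it. For the 10 points, WBP1 lay just inside and TTC39C (9.96 points) just outside on the higher side, and TTLL4 just inside and TUT1 just outside on the lower side.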

How the data were processed

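Intron retention was measured in polyA RNA of DLD-1 cells, with 1 library per group. The authors deposited 3 tables, each of a depleted library against a control; per the file headers they are directional IRFinder comparisons of STAR alignments, and RSEM, bedtools and the build hg38 are named, without versions, per the submitters' processing notes. For IRFinder and STAR the version is not given in the sources used here. Retention is a fraction as deposited by the authors, the intron depth is a coverage signal deposited by the authors, and the spliced reads are a deposited count per intron. No value was scaled between libraries. Introns that the tables do not list were not analysed here. The ratio differed from depth over depth plus spliced reads by more than 1 point at 600 introns after WBP11 RNAi and 805 after SNW1 RNAi. Both RNAi tables hold the same control library: all 13412 matched introns had the same control spliced reads in both.

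Introns were matched on chromosome, start, end and strand, and 651 with fewer than 10 observations in either RNAi library were left out. Ratios have Wilson 95% intervals, differences Newcombe 95% intervals and shares exact binomial 95% intervals. Reads without molecular identifiers are not independent molecules. Intron numbers, regions, flanking GC and sequences come from GENCODE release 29, and coordinates count from 1. Calls and intervals were run on simulated counts drawn from the binomial model they assume, which cannot show whether that model holds for these libraries. The members, gene lists and rules were chosen with earlier results of these data known. Named genes are WBP11, SNW1, TUBGCP6, CDCA5, the 12 with the largest differences in each direction (at least 30 observations, interval without 0, no known exon), 6 genes with introns in both directions, 6 with the most introns in each direction, and up to 2 per list and direction. Other genes given with values were chosen after their values were seen: the genes with every intron in 1 direction and those with the U12-type start. Alternatives were other sizes of difference, depth minimums, median centring, 1 intron per gene, warnings, known exons, a 2-fold rule and other ratios. Analyses used Python 3.11.15, numpy 2.4.6, pandas 2.3.3, scipy 1.17.1 and matplotlib 3.10.9.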

Additional observations from a re-analysis of the deposited data

Results flagged for a closer look

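In 4 introns that the text names, WBP11 RNAi lay below the control and SNW1 RNAi above it, each by at least 10 points; the difference was not tested, since each group has 1 library. USP21 intron 11, with the U12-type start, differed by -48.4 points between the RNAi libraries. CDH24 intron 9 differed by -45.0 points, at 3.23% after WBP11 RNAi, 48.2% after SNW1 RNAi and 15.8% in the control. HIP1R intron 25, of 70 bp, differed by -24.5 points, at 4.54% after WBP11 RNAi, 29.1% after SNW1 RNAi and 16.4% in the control. NBEAL2 intron 37 differed by -20.9 points, at 10.5% after WBP11 RNAi, 31.3% after SNW1 RNAi and 20.9% in the control.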

How the results depend on the processing

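No median difference, and no difference of 10 points or more among the 55 named introns tried, changed its sign. A difference of 5 points gave 570 higher and 4261 lower introns, and 20 points gave 89 and 680. At least 30 observations left 172 higher of 10941 introns (1.57%), and 100 left 79 higher and 734 lower of 5653 (1.40% and 13.0%). An interval without 0 left 151 higher. With 1 intron per gene there were 84 higher and 595 lower of 5014 introns, 1.68% and 11.9%. Introns without coverage warnings gave 122 and 1022 of 5655, which as shares, 2.16% and 18.1%, are close to the 2.09% and 16.5% of all introns. A 2-fold rule with a pseudocount of 0.01 gave 4996 lower. Other counts stayed within 1.5 times those reported. Centring on the median of -2.69 points gave 386 higher and 1511 lower, including the same 267 and 1511 introns, so 20.3% of calls were higher against 11.3% uncentred. With 1 intron per gene the median difference was -2.09 points over all introns, -2.13 up to 100 bp, -1.76 over 1000 bp, -2.53 after a last exon base G and -1.11 after another base; the order of short and long introns remained, by a smaller margin. At 30 observations the medians were -2.57 over all introns, -1.82 over 1000 bp and -2.98 after G. The share of higher introns that rose in the auxin pair was 80.4% with at least 30 observations there and 81.5% where the interval left out 0; these 2 settings, the recomputed ratio and the exact junction were chosen after seeing the data. The 55 named introns all kept their sign and their side of 10 points with a recomputed ratio and with exact-junction reads. Under centring, 3 of the 43 past 10 points no longer were, TUBGCP6 introns 12 (-9.51) and 19 (-9.47) and CDCA5 intron 5 (-8.50). Another 3, already within 10 points, changed sign: TUBGCP6 intron 7 (0.57) and CDCA5 introns 2 (1.44) and 3 (1.84). No paired analysis was possible because each group has 1 library, and for the same reason no replicate could be left out. Higher introns had a median of 55.5 observations after WBP11 RNAi and 64.3 after SNW1 RNAi, against 106 and 98.1 over all introns, and 95 of the 267 had under 30 in a library, so their counts are the less certain.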

Other observations

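The tables also hold introns listed on 1 side only, which the direct comparison cannot use. In the WBP11 RNAi table alone, 3217 introns had median retention of 2.43% after WBP11 RNAi and 1.68% in the control, with 232 at least 10 points above the control and 86 below. In the SNW1 RNAi table alone, 10665 introns had median retention of 2.70% after SNW1 RNAi and 0.511% in the control, with 995 above and 28 below.

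Intron base 5, which lies in the stretch that pairs with U1 and U6 snRNA, was G in 2120 of the 2706 introns with a sequence. The lower share after WBP11 RNAi was 29.7% with G, 32.3% with C (n = 232), 21.1% with T (n = 161) and 19.2% with A (n = 193), so G did not stand apart from C. The higher share was 3.68% with G, 4.31% with C, 3.73% with T and 6.22% with A. Introns with a sequence in the highest of 5 classes of intron GC content were lower in 36.5% of cases and higher in 5.57%, against 15.1% and 3.51% in the lowest class.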
